A study of Mus musculus with 6 samples.

Results

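The collagen genes are the 44 genes of the deposited mouse table whose symbol has the form Col, a type number, the letter a and a chain number, out of 52550 genes in all; no symbol occurred in more than 1 row. The cells were C57BL/6 mouse macrophages, grown out of marrow for 7 days in 25 ng/ml M-CSF, the growth factor that turns marrow cells into macrophages. In 3 samples (C CM) the macrophages were then given medium in which normal chondrocytes, the cells of cartilage, had been cultured, and in 3 samples (AC CM) medium of apoptotic chondrocytes. The labels give no exposure time, no animal of origin and no sample without conditioned medium. Nor is it said if replicates were separate cultures or animals, so the p-values take in the spread of these 6 samples alone, and that spread may be technical.

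Collagens are secreted proteins built of 3 chains that wind into a triple helix. Fibrillar collagens such as types 1, 3 and 5 form the fibres of bone, skin and tendon. Type 2 takes that place in cartilage, with types 9 and 11 on and in its fibrils. Type 4 forms the sheet of basement membranes, and type 6 forms beaded filaments around cells. Collagen is made mainly by fibroblasts, osteoblasts and chondrocytes, while macrophages are better known for taking it up and degrading it, although transcripts of types 6 and 8 are well known in macrophages.

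After AC CM the collagen transcripts were lower more often than higher. Of the 44 genes, 36 had enough counts to be tested. In these, 13 fell (36.1%, against 13.3% of all 17863 genes tested), 1 rose (2.78%, also against 13.3%) and 22 did not pass edgeR's quasi-likelihood test at a Benjamini-Hochberg adjusted p under 0.05. In either direction 14 passed, where 26.5% of all genes did. Called genes that were at least 2-fold lower (4.14% of all genes) were Col6a1, Col6a2, Col6a3, Col6a4, Col4a1, Col15a1, Col5a3 and Col9a3. In CPM (counts scaled to a common library size) the groups did not overlap in 17 collagen genes, 15 lower and 2 higher, against 44.7% of all genes, 22.1% lower and 22.6% higher. The median log2 fold change, AC CM over C CM, was -0.41 over the 36 genes and 0.00 over all genes tested. Type 6 chains (4 of 5 fell), the type 4 pair Col4a1 and Col4a2, Col15a1, Col5a3 and the type 1 chains made up most of the falls. The rise was in Col11a1, a minor fibrillar chain of cartilage. With AC CM replicate 1 kept as the only library of its group, 8 collagen genes passed, 7 lower and 1 higher, in a fit that takes the spread from C CM alone. In that fit 1274 of all 19329 genes tested passed, 764 lower and 510 higher. There Col6a1 was at -1.19 (adjusted p = 0.00312), Col6a2 at -1.24 (0.00370), Col6a3 at -1.34 (0.00162), Col4a1 at -1.15 (0.00600), Col15a1 at -2.77 (0.00188) and Col11a1 at 0.84 (0.0133).

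**Figure D1:**
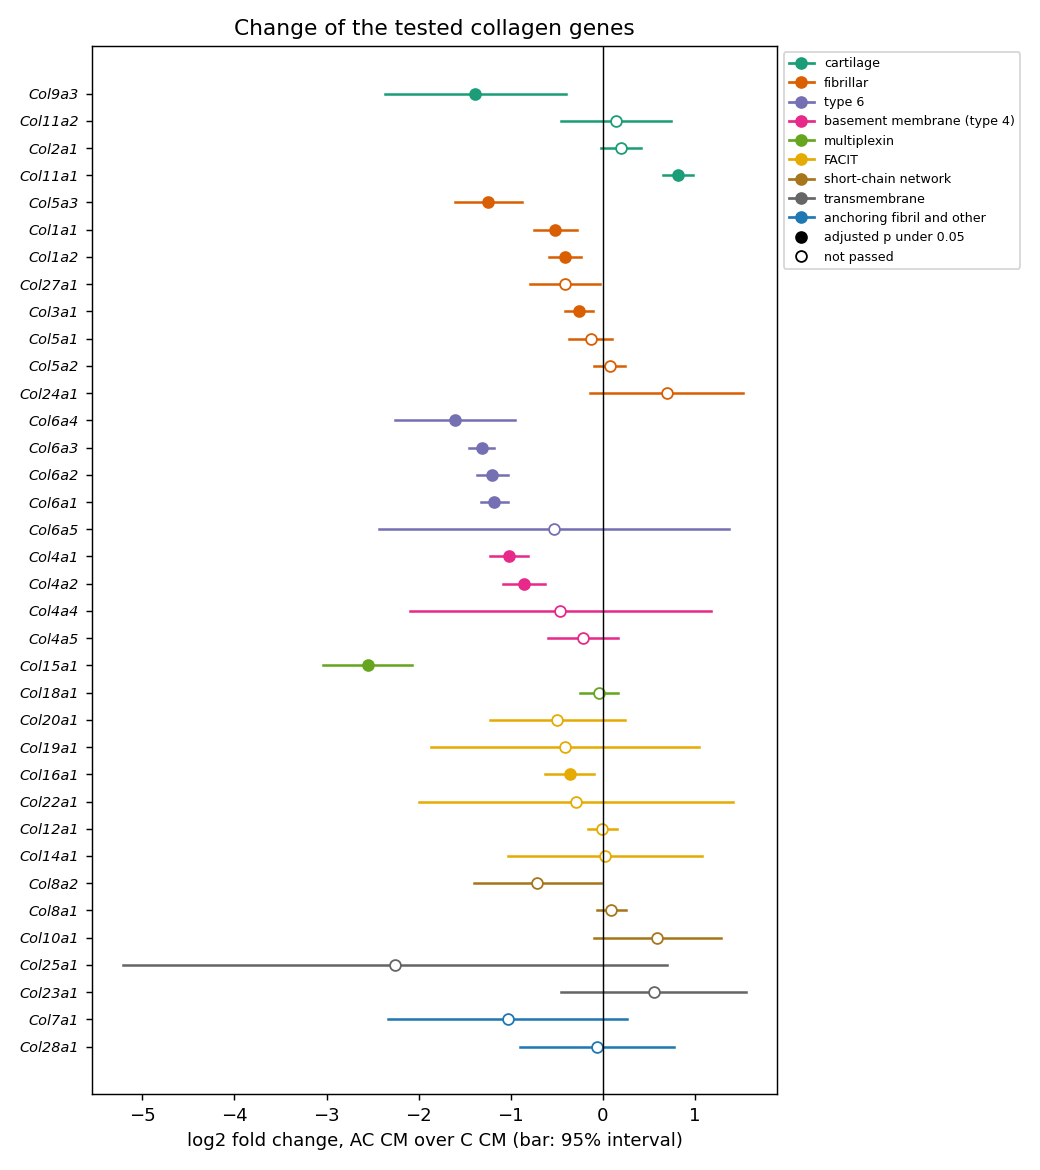
Log2 fold change of each tested collagen gene, AC CM over C CM (x axis, log2 units), with its 95% interval, coloured by class. Filled points passed at an adjusted p under 0.05. The type 6 chains Col6a1 to Col6a4 lie between -1.18 and -1.61, Col15a1 is the farthest left of the filled points at -2.55, and Col11a1 is the filled point to the right of 0.

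Libraries held 65630784 to 80105872 counts, and no pair of replicates was a copy of the other (chi-square per gene of 21.2 to 48.1). Macrophage genes were abundant, with 8 markers summing to between 19320 and 20880 CPM after C CM and 17100 to 17840 CPM after AC CM. Of these, 3 fell (37.5%, against 13.3% of all genes), 0 rose and 5 did not pass. Csf1r (log2 fold change -0.72), Mertk (-0.40) and Cd14 (-0.30) fell, while Lyz2, most of the sum, was at -0.08 (adjusted p = 0.379). Transcripts of other cells were present too. Beside the 13.3% of all genes that passed in each direction, 6 of 12 fibroblast and mesenchymal markers (50%) fell, 2 (16.7%) rose and 4 did not pass, and their summed level was 644 to 744 CPM after C CM and 634 to 652 CPM after AC CM. Of these, Pdgfra (log2 fold change -0.72), Pdgfrb (-0.56), Thy1 (-2.24), Fbn1 (-0.48), Fbln1 (-0.77) and Pi16 (-1.23) fell and Fmod (0.72) and Ogn (0.47) rose, whereas Dcn was at 0.11 (adjusted p = 0.501) and Postn at -0.0006 (adjusted p = 0.998) with overlapping groups. The others that did not pass, Lum at 0.51 (adjusted p = 0.103) and Mfap5 at 0.72 (adjusted p = 0.0929), lay above C CM in every AC CM library. Of 7 endothelial markers 6 (85.7%) fell, among them Cdh5 at -1.93, and Kdr rose by 1.46. The sum of the 7 was 74.3 to 82.6 CPM after C CM and 62.0 to 66.2 CPM after AC CM. Kdr was at 12.19, 14.87 and 14.21 CPM after C CM. After AC CM it was at 40.1, 36.29 and 37.05 CPM, most of the sum, which thus understates the fall of the other 6. Of 8 osteoblast markers Ibsp rose (0.69, 25.0% of the 4 tested), 3 did not pass and 4 were too low to be tested, with Mepe at 0 in every library. Their summed level was 58.3 to 62.1 CPM after C CM and 61.7 to 79.9 CPM after AC CM. The part of these cells in the collagen values was not tested, and in RNA from whole cultures fewer cells of a type and less RNA per cell cannot be told apart.

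Per kilobase of exon, type 1 transcripts stood far above the other collagens. Col1a1, the main chain of the most abundant collagen of bone and skin, was at 292 ± 46.45 CPM per kilobase after C CM and Col1a2, its partner chain, at 167 ± 16.8 (SD, n = 3). Next in order came Col6a1 (64.4), Col5a2 (51.3), Col3a1 (38.4), Col5a1 (35.5), Col6a2 (24.1), Col12a1 (21.6) and Col4a1 (20.4). The libraries of Col3a1 and Col5a1 overlapped, as did those of Col6a2 with Col12a1 and of Col12a1 with Col4a1, so those neighbours cannot be ordered. Col6a3, Col8a1 and Col4a2 followed at 14.4 to 15.0 CPM per kilobase with overlapping libraries. Col2a1 held place 15 at 4.15 and Col11a1 place 16 at 2.80. After AC CM type 1 was still first and second, while Col6a1 moved from place 3 to place 6 and Col11a1 from 16 to 14. Col11a1 (4.91 ± 0.12), Col16a1 (4.81 ± 0.37) and Col2a1 (4.73 ± 0.25) overlapped after AC CM, so they cannot be ordered there. Lengths are those of all annotated exons of a gene merged, which may be longer than the transcripts the cells make.

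Together the 44 genes took 0.674% ± 0.0677 of all counts after C CM and 0.506% ± 0.0102 after AC CM (SD, n = 3), and the libraries of the groups did not overlap. Type 1 alone gave 59.4% ± 1.80 of the collagen counts after C CM and 57.2% ± 0.271 after AC CM. The share of type 6 in the collagen counts was 9.91% ± 0.482 and 5.61% ± 0.0538, and that of the cartilage chains 1.16% ± 0.0132 and 2.17% ± 0.0329. These shares are counts and not molecules, since a long transcript gives more of them.

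**Figure D2:**
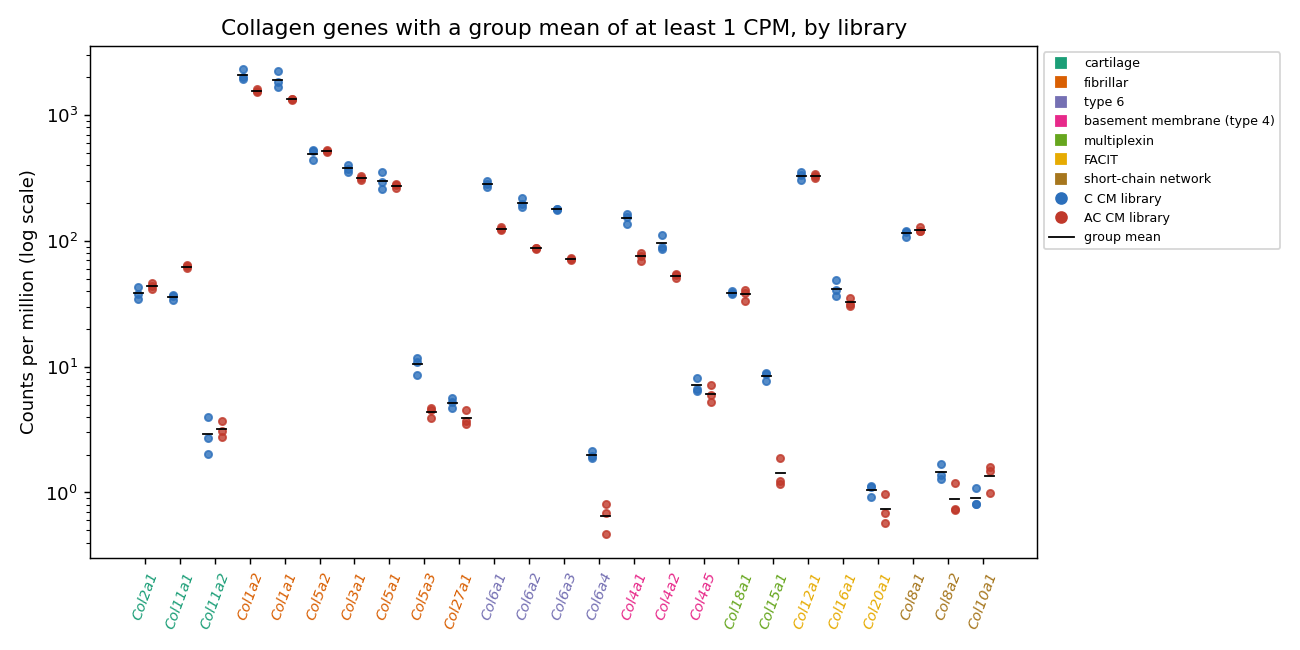
CPM of the 25 collagen genes with a mean of at least 1 CPM in either group (y axis, log scale) in each C CM library (blue) and AC CM library (red), with the group mean as a black line and gene names coloured by class. The Col6a1, Col6a2, Col6a3 and Col4a1 libraries of the groups stand apart, and those of Col12a1 and Col8a1 overlap.

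Col6a1, Col6a2 and Col6a3 encode the 3 chains of the usual type 6 molecule, which links cells to the matrix around them. Col6a1 (ENSMUSG00000001119.7, chromosome 10, 76708792 to 76726168, minus strand) was at 298, 267 and 281 CPM in C CM replicates 1, 2 and 3 and at 124, 128 and 122 CPM in AC CM replicates 1, 2 and 3. Every AC CM library lay below every C CM library. The fold was 2.26 (log2 fold change -1.18, SE 0.07, adjusted p = 7.07e-06). Col6a2, which lies near it on the same strand (76595762 to 76623630), was at 218, 186 and 198 CPM after C CM and 85.5, 87.7 and 88.3 CPM after AC CM. It fell 2.30-fold (log2 fold change -1.20, SE 0.07, adjusted p = 1.22e-05). Col6a3, the largest chain, from chromosome 1 (90765923 to 90843971, minus strand), was at 179.5, 177 and 181 CPM after C CM and 70.8, 72.0 and 72.9 CPM after AC CM. Its libraries were the closest within each group of the 3 genes, and it fell 2.49-fold (log2 fold change -1.32, SE 0.06, adjusted p = 2.17e-06).

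The other type 6 chains, which can stand in for Col6a3, were far lower. Col6a4 had 129, 145 and 127 counts after C CM and 48, 36 and 65 after AC CM, and it fell by 1.61 on the log2 scale (SE 0.29, adjusted p = 0.00366). It no longer passed when AC CM replicate 1 was the only library of its group (adjusted p = 0.0601). Col6a5 had 20, 13 and 12 counts after C CM and 4, 4 and 28 after AC CM, and the groups overlapped (log2 fold change -0.54, 95% interval -2.44 to 1.36). Col6a6 had counts in 2 libraries, 8 in AC CM replicate 1 and 5 in C CM replicate 3.

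The bases just upstream of the Col6a2 and Col6a3 starts are shown because these genes fell by similar amounts from different chromosomes, at chr10:76623631-76623730 and chr1:90843972-90844071 of GRCm38.p6, both on the minus strand, from RefSeq. Capitals would mark a match, on either strand, to the letters TATAAA, called a TATA box. They would also mark the CCAAT box, which is named for its letters. The last motif marked is the GC box, with the letters GGGCGG, and neither stretch held any of the 3. In the longer window of 300 bases, 250 before the start and 50 after, Col6a2 held GGGCGG and Col6a3 none of the motifs.
Col6a2: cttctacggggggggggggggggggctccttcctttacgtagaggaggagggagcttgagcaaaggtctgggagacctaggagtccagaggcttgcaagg
Col6a3: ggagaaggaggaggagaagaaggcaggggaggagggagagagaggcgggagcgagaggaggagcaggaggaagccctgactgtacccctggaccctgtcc
Both stretches are rich in G on the strand shown, in a run of G in Col6a2 and in repeats of G and A in Col6a3.

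Col4a1 and Col4a2 encode the chains of the common type 4 molecule and lie head to head. Col4a1 (ENSMUSG00000031502.11, chromosome 8, 11198423 to 11312826, minus strand) was at 165, 137 and 155 CPM after C CM and 69.0, 75.9 and 80.8 CPM after AC CM. It fell 2.02-fold (log2 fold change -1.02, SE 0.09, adjusted p = 8.26e-05). Col4a2 (11312805 to 11449287, plus strand) was at 111, 90.0 and 85.6 CPM after C CM and 50.9, 53.1 and 54.2 CPM after AC CM, and it fell 1.81-fold (log2 fold change -0.86, SE 0.10, adjusted p = 3.89e-04). The groups did not overlap in either gene. C CM replicate 1 was the highest library for both.

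The annotated starts of this pair overlap by 22 bases, shown because any sequence there belongs to both genes (chr8:11312805-11312826, GRCm38.p6, plus strand, from RefSeq). Capitals mark a GC box.
Col4a1 and Col4a2 shared start: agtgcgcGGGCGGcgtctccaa
The windows of 300 bases around both starts (250 before, 50 after) also hold CCAAT, which occurs in 37.4% of all 32817 promoter windows of that length, and GGGCGG, which occurs in 35.6%.

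The other type 4 chains, known from the kidney, lung and other specialised membranes, were low. Col4a5 (437, 442 and 547 counts after C CM; 501, 463 and 415 after AC CM) overlapped between the groups and was at -0.22 (95% interval -0.60 to 0.16). Col4a4 had at most 24 counts in a library and was at -0.46 (95% interval -2.10 to 1.17). Col4a3 and Col4a6 were too low to be tested. Col4a3 had 0, 9 and 68 counts in the AC CM replicates and 4, 4 and 13 in the C CM replicates.

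Col15a1 and Col18a1 encode the multiplexins, collagens of basement membranes whose ends can be cut off as the endothelial inhibitors restin and endostatin. Col15a1 (ENSMUSG00000028339.17, chromosome 4, 47208161 to 47313167, plus strand) was at 8.69, 7.63 and 8.94 CPM after C CM and 1.24, 1.18 and 1.88 CPM after AC CM. It had the largest fall among the collagen genes past the threshold, 5.87-fold (log2 fold change -2.55, SE 0.21, adjusted p = 5.80e-05). In counts this was 570, 522 and 599 against 87, 91 and 150. Col18a1 was at 39.9, 38.3 and 37.9 CPM after C CM and 33.2, 38.4 and 41.0 CPM after AC CM, so the groups overlapped (log2 fold change -0.04, 95% interval -0.25 to 0.17). The gene overlaps Slc19a1 on the other strand, which had 850 to 1171 counts. The Col15a1 start in RefSeq lies 149 bases before that of the table, and the 100 bases upstream of it, shown for the collagen gene that fell most (chr4:47207912-47208011, GRCm38.p6, plus strand), held none of the motifs.
Col15a1: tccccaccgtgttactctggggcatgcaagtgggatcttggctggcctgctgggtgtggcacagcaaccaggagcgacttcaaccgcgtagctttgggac
None of the motifs was in its whole 300-base window either, which says only that these letters are absent there.

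Of the 8 fibrillar chains not counted with the cartilage chains (types 1, 3, 5, 24 and 27), 4 fell, 0 rose and 4 did not pass. Of all genes 13.3% passed in each direction. Col1a1 (ENSMUSG00000001506.10, chromosome 11, 94936224 to 94953042, plus strand) was at 2255, 1665 and 1828 CPM after C CM and 1316, 1352 and 1354 CPM after AC CM. C CM replicate 1 stood above the rest, and the AC CM libraries lay close together below all of C CM. Col1a1 fell 1.43-fold (log2 fold change -0.52, SE 0.10, adjusted p = 0.00573). Without C CM replicate 1 it was at -0.38 (adjusted p = 6.18e-04). Col1a2 (chromosome 6, 4504814 to 4541544, plus strand) was at 2316, 1920 and 2003 CPM after C CM and 1518, 1601 and 1563 CPM after AC CM, and it fell 1.33-fold (log2 fold change -0.41, SE 0.08, adjusted p = 0.00406). On AC CM replicate 1 alone these were at -0.55 (adjusted p = 0.137) and -0.46 (adjusted p = 0.128).

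Col3a1, whose fibres run with type 1 in soft tissue, was at 404, 352 and 374 CPM after C CM and 326, 303 and 314 CPM after AC CM (log2 fold change -0.26, SE 0.07, adjusted p = 0.0225). The groups did not overlap, but removing C CM replicate 3 took the adjusted p to 0.0518, removing AC CM replicate 1, 2 or 3 took it to 0.0532, 0.107 or 0.0857, and keeping only replicate 1 of AC CM took it to 0.435. A short gene within Col3a1 on the same strand, AC125167.1, had 899 to 1057 counts. Its neighbour Col5a2 on chromosome 1, which encodes a type 5 chain that sits inside type 1 fibrils, was at 514, 439 and 523 CPM after C CM and 508, 521 and 523 CPM after AC CM. These groups overlapped (log2 fold change 0.07, 95% interval -0.10 to 0.24). Col5a1, the main type 5 chain, was at -0.13 (95% interval -0.37 to 0.10) with overlapping groups.

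Col5a3, the rarest type 5 chain, was at 11.7, 8.63 and 10.9 CPM after C CM and 3.92, 4.71 and 4.57 CPM after AC CM. It fell 2.37-fold (log2 fold change -1.24, SE 0.16, adjusted p = 6.21e-04), with no overlap between the groups. Col27a1, a fibrillar chain of growing cartilage, was at -0.41 (SE 0.17, adjusted p = 0.109) with 320 to 372 counts after C CM and 279 to 321 after AC CM. Col24a1, a fibrillar chain of developing bone, was at 0.69 (SE 0.37, adjusted p = 0.205) with 25 to 35 and 49 to 61 counts. The groups did not overlap in either, and neither passed.

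Col2a1 encodes the only chain of type 2 collagen, the fibre of cartilage. It had 2811, 2359 and 2517 counts in the C CM replicates and 2922, 3563 and 3482 in the AC CM replicates, or 42.9, 34.5 and 37.6 CPM and 41.5, 46.1 and 43.7 CPM. C CM replicate 1 lay within the AC CM range. The log2 fold change was 0.19 (SE 0.10, 95% interval -0.03 to 0.41, adjusted p = 0.179). Without C CM replicate 1 it was 0.28 (adjusted p = 0.0274).

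Col11a1 (ENSMUSG00000027966.20, chromosome 3, 114030540 to 114220718, plus strand) encodes a type 11 chain that lies in the core of type 2 fibrils. It was at 37.0, 33.8 and 36.1 CPM after C CM and 63.9, 60.8 and 62.9 CPM after AC CM. Every AC CM library was above every C CM library. Col11a1 rose 1.75-fold (log2 fold change 0.81, SE 0.07, adjusted p = 8.39e-05). Its partner Col11a2 had 260, 184 and 136 counts after C CM and 262, 213 and 247 after AC CM, with overlap (log2 fold change 0.14, 95% interval -0.46 to 0.74). The 100 bases before the Col11a1 start, shown because it is the collagen gene that rose, held a CCAAT box read on the other strand (ATTGG) and a GC box, in capitals (chr3:114030440-114030539, GRCm38.p6, plus strand, from RefSeq).
Col11a1: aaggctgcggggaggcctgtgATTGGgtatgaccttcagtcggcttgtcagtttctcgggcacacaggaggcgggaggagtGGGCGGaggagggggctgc
Of the 35 collagen genes with a RefSeq window, 12 (34.3%) held CCAAT, against 37.4% of all windows, and 22 (62.9%) held GGGCGG, against 35.6%. TATAAA was in 5 (14.3%), against 13.6% of all windows.

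Type 9 collagen, which coats type 2 fibrils, was close to absent. Col9a1 had 4 counts in AC CM replicate 3 and 0 in the other libraries. Col9a2 had 8 counts in C CM replicate 3 and 0 in the others. Col9a3 had 84, 46 and 46 counts after C CM and 19, 23 and 35 after AC CM. It fell by 1.38 on the log2 scale (SE 0.44, adjusted p = 0.0447), and the groups did not overlap. The call was lost when any library was removed (adjusted p = 0.0590 to 0.17) and under limma-voom (0.0568), and the end of Col9a3 overlaps Tcfl5 on the other strand, which had 42 to 128 counts. Col10a1, the collagen of hypertrophic chondrocytes, had 71, 55 and 54 counts after C CM and 105, 76 and 126 after AC CM (log2 fold change 0.59, SE 0.30, adjusted p = 0.192). It lies within Nt5dc1, which is on the other strand and had 871 to 1565 counts.

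Other chondrocyte genes were low beside Col2a1. Acan, which encodes the main proteoglycan of cartilage, had 0 counts in each C CM library and 8, 9 and 12 in the AC CM libraries. Cnmd and Ucma had 0 in all 6 libraries. Comp had 20, 50 and 41 counts against 50, 63 and 125 (log2 fold change 0.91, adjusted p = 0.181), and Sox9, the transcription factor that switches on Col2a1 in chondrocytes, had 157, 120 and 52 against 120, 132 and 118. Of the 7 markers tested, 1 rose and 1 fell (14.3% each, against 13.3% of all genes in each direction), and 5 did not pass. Matn1, a matrix protein gene of cartilage, had 83, 90 and 66 counts against 12, 0 and 28 (log2 fold change -2.76, adjusted p = 0.0511), without overlap. The lubricin gene Prg4 rose by 1.56 (35, 40 and 24 counts to 81, 166 and 86), and Chil1, which macrophages also make, fell by 2.30 on the log2 scale. The 14 chondrocyte markers in the table summed to 10.8 to 14.1 CPM after C CM and 6.02 to 7.69 CPM after AC CM. Chil1, the most counted of those after C CM, went from 7.91 ± 1.01 to 1.61 ± 0.602 CPM. That is at least as much as the mean sum fell, so the lower sum shows no fall of the other markers together. The part of chondrocyte RNA in the cartilage collagens was not tested.

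Col12a1, a chain that lies on type 1 fibrils, was at 304, 333 and 351 CPM after C CM and 317, 337 and 330 CPM after AC CM, with a log2 fold change of -0.005 (95% interval -0.16 to 0.15). Col8a1, a short network chain made by macrophages and vessel cells, was at 107, 117 and 120.3 CPM after C CM and 119.7, 119.5 and 128 CPM after AC CM (log2 fold change 0.09, 95% interval -0.06 to 0.25). For these abundant chains the intervals leave room only for small changes. Col16a1 fell by 0.36 on the log2 scale (48.7, 36.2 and 40.4 CPM to 30.5, 31.7 and 35.3 CPM, adjusted p = 0.0496). It no longer passed when C CM replicate 1 (-0.23, adjusted p = 0.0923) or 3 (0.0890) was removed, when AC CM replicate 1 (0.156), 2 (0.148) or 3 (0.0729) was removed, or in 6 of the other alternatives.

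Col8a2, the partner of Col8a1, was at -0.71 (SE 0.30, adjusted p = 0.120; 86 to 110 counts after C CM and 52 to 94 after AC CM), though the groups did not overlap in CPM. The surface chains Col14a1, Col19a1, Col20a1 and Col22a1, the membrane-bound Col23a1 and Col25a1, the anchoring fibril gene Col7a1 and Col28a1 had at most 98 counts in any library. None of them passed, and the groups overlapped in all of them. Their log2 fold changes ran from -2.26 (Col25a1) to 0.55 (Col23a1), with SEs of 0.32 to 1.30. Col20a1 overlaps 9230112E08Rik on the same strand, which had 352 to 539 counts. The 8 genes too low to be tested were Col4a3, Col4a6, Col6a6, Col9a1, Col9a2, Col13a1, Col17a1 and Col26a1, with 4 to 68 counts in their highest library.

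A ratio of counts of chains in the same library does not depend on the library's depth or scaling. Each of 9 ratios, chosen after the values were seen, was compared between the groups with a two-sided exact permutation test, which cannot go below p = 0.1 with 3 libraries against 3. Col6a1 over Col6a2 was 1.41 ± 0.0376 after C CM and 1.43 ± 0.0456 after AC CM (exact p = 0.5). Col6a3 over Col6a1 was 0.637 ± 0.0318 and 0.577 ± 0.0198, without overlap. Col4a1 over Col4a2 was 1.61 ± 0.176 and 1.43 ± 0.0677 (exact p = 0.2). Col1a1 over Col1a2 was 0.918 ± 0.0534 and 0.859 ± 0.0128 and did not overlap, though the nearest libraries were at 0.8673 and 0.8668. Col5a1 over Col5a2 was 0.612 ± 0.0639 and 0.531 ± 0.0111, without overlap. Col11a1 over Col11a2 was 13.2 ± 4.27 and 19.9 ± 2.48, with overlap (exact p = 0.2). Of these 6 ratios between chains of the same type, 3 overlapped between the groups and 3 did not.

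The other ratios set chains of different types against each other. Col3a1 over its neighbour Col5a2 was 0.767 ± 0.0468 after C CM and 0.608 ± 0.0308 after AC CM. Col11a1 over Col2a1 was 0.935 ± 0.0626 and 1.43 ± 0.111, and Col2a1 over Col1a1 was 0.0201 ± 9.39e-04 and 0.0326 ± 0.00131 (SD, n = 3). The groups did not overlap in any of these. Each ratio without overlap had an exact p of 0.1, and of 0.15 after Benjamini-Hochberg adjustment over the 9 ratios.

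**Figure D3:**
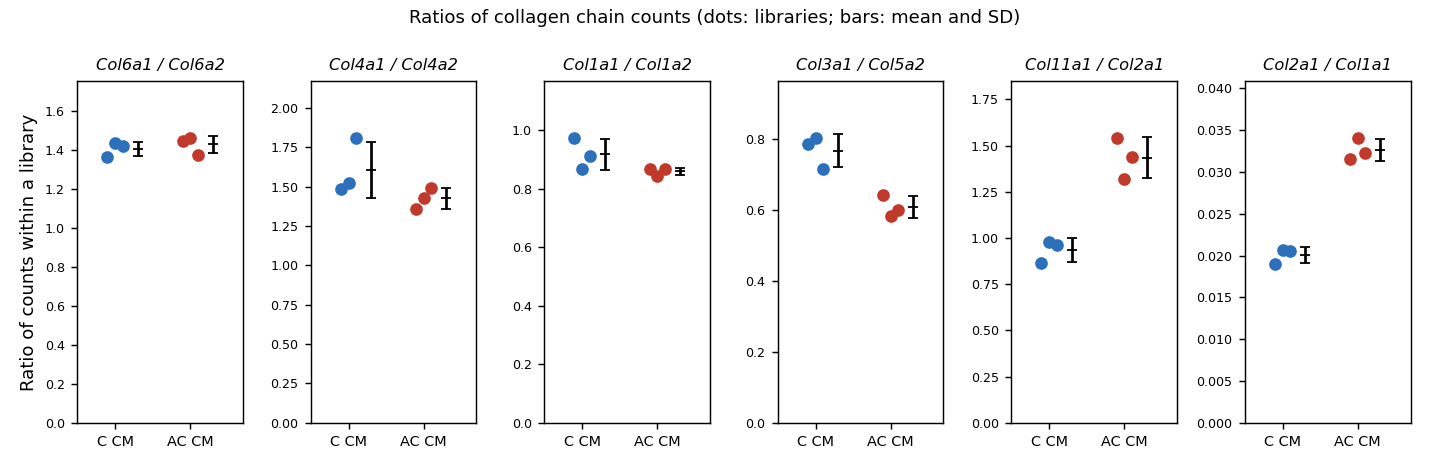
Ratio of counts of pairs of collagen genes within each library (y axis, from 0), with C CM libraries in blue and AC CM libraries in red and the mean and SD beside them. Col6a1 over Col6a2 stays near 1.4 in both groups, while Col11a1 over Col2a1 goes from 0.935 to 1.43.

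Of 25 tested genes for enzymes, chaperones and export of collagen, 3 rose (12.0%) and 3 fell (12.0%), each against 13.3% of all genes. P4ha1, a subunit of the prolyl hydroxylase that stabilises the helix, rose by 0.62 (134.5 ± 2.99 to 206 ± 7.06 CPM, SE 0.06, adjusted p = 1.43e-04). Tmem38b, an ion channel of the endoplasmic reticulum needed for collagen maturation, rose by 0.40. Fkbp10, a collagen chaperone, was at -0.32 (adjusted p = 0.00930) and P3h2, a prolyl hydroxylase that acts on type 4 collagen, at -0.79 (adjusted p = 0.0155). Serpinh1, which encodes the collagen chaperone HSP47, had 12679, 9808 and 10516 counts after C CM and 7891, 8198 and 18335 after AC CM. AC CM replicate 3 was the highest of all libraries and the other AC CM libraries the lowest, and the gene did not pass (log2 fold change -0.14, SE 0.36, adjusted p = 0.822).

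Of 14 tested genes for cutting the ends of procollagen and crosslinking fibres, 5 fell (35.7%, against 13.3%) and 1 rose (7.14%, also against 13.3%). The gene that rose was Loxl2 (log2 fold change 0.28), while Lox was at 0.05 (adjusted p = 0.658) with overlapping groups. Adamts2, which removes the start of types 1 to 3 procollagen, fell by 0.78 on the log2 scale (76.7 ± 7.70 to 44.8 ± 1.88 CPM, SE 0.09, adjusted p = 3.20e-04). Pcolce, an enhancer of removal of the other end, fell by 0.61 on the log2 scale (SE 0.11, adjusted p = 0.00335). Sparc, a collagen-binding matrix protein, fell by 0.33 (900 ± 16.3 to 717 ± 15.95 CPM) and the crosslinking enzyme gene Loxl1 by 0.51, both on the log2 scale.

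Of 14 tested receptor and uptake genes 5 rose (35.7%) and 2 fell (14.3%), each against 13.3% of all genes. Those that fell were Mrc2, by 0.50 on the log2 scale, and Gp6, by 1.85, with at most 78 counts in a library. The scavenger receptor genes Cd36 and Msr1, which bind many ligands besides collagen, rose by 1.39 and 1.58. Cd44 rose by 0.53 and Itgb1, the shared subunit of the collagen integrins, by 0.44 (716 ± 51.8 to 970 ± 14.5 CPM). Lair1, an inhibitory collagen receptor of leukocytes, was at 0.12 (adjusted p = 0.505). Of 17 tested protease and inhibitor genes 5 fell (29.4%) and 4 rose (23.5%), each against 13.3%. Mmp9 (27.3 ± 2.29 to 8.50 ± 1.04 CPM, log2 fold change -1.68) and Mmp12 (-1.92) fell, as did Mmp14, a collagenase at the cell surface (139 ± 10.03 to 98.1 ± 1.94 CPM, -0.50). The lysosomal protease gene Ctsl rose by 0.60 and the inhibitor gene Timp3 by 0.81. Ctsk, a collagenase of osteoclasts, was at 0.10 (adjusted p = 0.527).

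Of 23 tested regulators of collagen transcription 2 rose (8.7%) and 1 fell (4.35%), both shares below the 13.3% of all genes. Smad3 (0.36) and Smad2 (0.31), which carry TGF-beta signals, rose. Mkl1, which encodes a coactivator of serum response factor, fell by 0.56 on the log2 scale, and 20 did not pass. Over the 5 lists together, 15 of 93 genes rose and 16 fell (17.2%, against 13.3%), with a median log2 fold change of -0.02. On AC CM replicate 1 alone fewer of these genes passed, as did fewer of all genes.

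**Figure D4:**
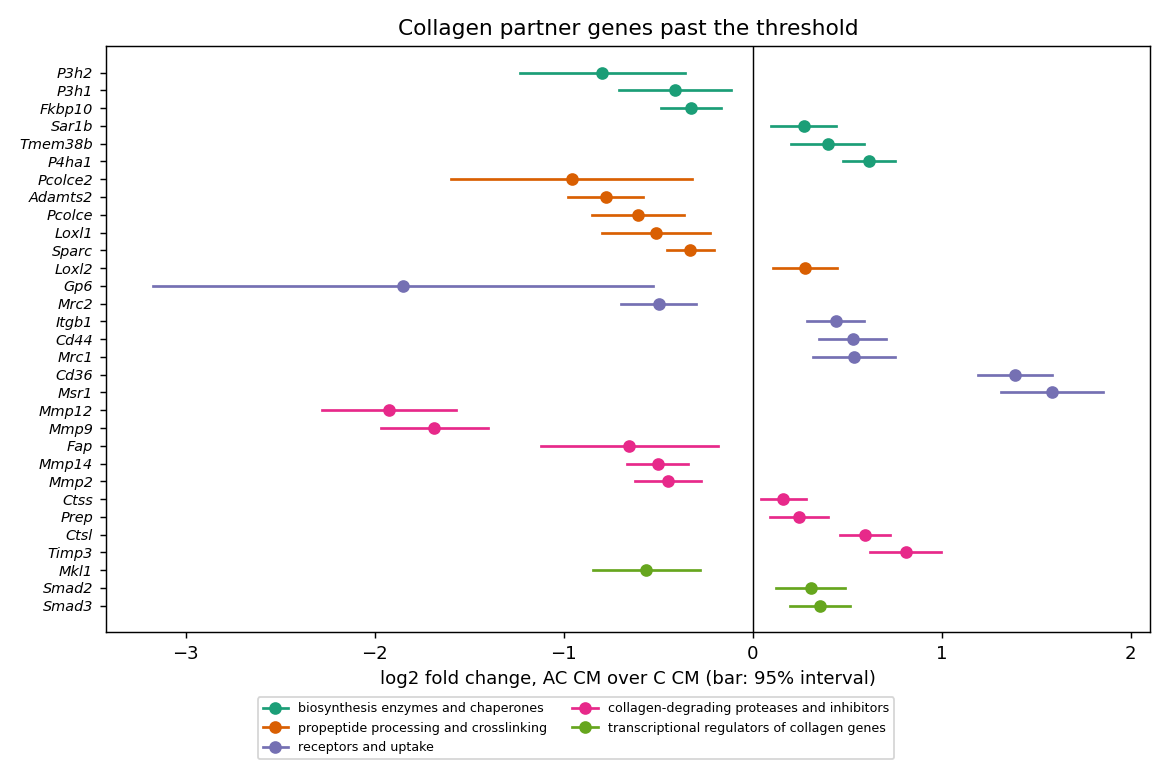
Log2 fold change, AC CM over C CM (x axis), with its 95% interval, of the 31 genes that make, cut, crosslink, bind, degrade or regulate collagen and passed at an adjusted p under 0.05, coloured by list. Mmp12 lies at -1.92 and Msr1 at 1.58.

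Liver transcripts differed between the AC CM libraries. Alb, the serum albumin gene, had 1972, 90 and 17 counts in the C CM replicates, then 2684, 36283 and 77432 in the AC CM ones. The 12 hepatocyte markers summed to 516 to 598 CPM after C CM and to 353, 936.5 and 1788 CPM in AC CM replicates 1, 2 and 3. Most of the C CM sum was Trf, the transferrin gene, which fell by 0.60 on the log2 scale. The other 11 markers summed to 45.15, 1.64 and 0.597 CPM in the C CM replicates and to 48.5, 587 and 1382 CPM in the AC CM ones. Beside the 13.3% of all genes that passed in each direction, 1 (Trf) of the 11 markers tested fell and 10 did not pass. Their part in the collagen values was not tested.

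The authors' deposited table called 12 collagen genes lower and 1 higher at an adjusted p under 0.05. These 13 were called in the same direction in the fit described above, and Col9a3 was called there only (adjusted p = 0.0641 in the authors' deposited table).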

How the data were processed

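R 3.4.3, DESeq2 1.18.1, HISAT2 2.1.0 and fastp 0.17.1 are listed, without their roles, per the submitters' processing notes. Counter, build and annotation: not given in the sources used here. The authors deposited raw read counts for each gene. Their deposited normalized signal is the counts over a constant per sample and was left aside. The log2 fold changes and p-values deposited with them come from the authors' test.

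Of the 44 collagen genes, 43 have the same coordinates as in GENCODE release M21 (GRCm38), whose merged exons gave lengths. All genes were filtered with filterByExpr, given TMM factors and fitted in edgeR 4.0.16 with its robust quasi-likelihood test (R 4.3.3, two-sided, group as the only term), with Benjamini-Hochberg adjustment over 17863 genes. CPM uses TMM-scaled library sizes. The procedure was tested on simulated data. There it recovered 24% of changes of 0.5 on the log2 scale and 72% of changes of 1. In the simulation 100 of 17405 tested genes were given each change, far fewer than the 4741 that passed in the data. These rates therefore need not hold for the data. A gene that did not pass may still have changed, by an amount that its interval gives better than these rates. Alternatives were DESeq2 1.42.0, limma-voom (limma 3.58.1), other scalings and filters, no robust estimation, counts divided by 4, the 20 most counted genes left out, a replicate block, and libraries left out.

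The members and lists were chosen with earlier results of these data known. Every tested collagen gene is named. From each partner list up to 4 genes past the threshold with the smallest p are named. Serpinh1, P4ha1, Lair1, Mmp14, Ctsk and Sparc are named in every case, as are the markers Acan, Comp, Sox9, Dcn, Lum, Pdgfra and Alb. Other markers, overlapping genes and Mrc1, Mrc2, Gp6, Lox and Loxl2 were named after their values were seen. Of 101 partner symbols 98 were in the table. Promoter windows are from RefSeq (GRCm38.p6) for 35 of 44 genes. Whether counting used strand is not stated, so overlapping genes on opposite strands may share reads. Markers of granulocytes and megakaryocytes were read as well. Python 3.11.15, pandas 2.3.3, numpy 2.4.6, scipy 1.17.1 and matplotlib 3.10.9 were used for tables and figures.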

Additional observations from a re-analysis of the deposited data

How the results depend on the processing

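Of 14 collagen calls, 8 held in each of the 18 alternatives: Col4a1, Col4a2, Col5a3, Col6a1, Col6a2, Col6a3, Col11a1 and Col15a1. Leaving out 1 library at a time gave 3158 to 5023 changed genes in all, 11 to 13 collagen genes and 21 to 33 partner genes, and leaving out AC CM replicates 2 and 3 gave 1274, 8 and 10. Samples of the same replicate number shared no clear deviation from their group means (correlations -0.116, -0.0306 and -0.0135). With 3 libraries per group this cannot settle whether the samples were paired. The replicate block gave 4397, 12 and 25, losing Col9a3 and Col16a1 (adjusted p = 0.0945 and 0.0648). Some genes that did not pass changed sign. Col14a1 was at -0.0927 under limma-voom, -0.0009 under upper quartile scaling, -0.10 under the replicate block and -0.98 with AC CM replicates 2 and 3 left out, where Col28a1 was at 0.31. With 1 library left out Col12a1 ranged from -0.057 to 0.0429, Col14a1 from -0.46 to 0.34, Col19a1 from -1.36 to 0.0087, Col22a1 from -0.75 to 0.48, Col28a1 from -0.29 to 0.13, Col11a2 from -0.0625 to 0.44, Col5a2 from -0.0055 to 0.12 and Col18a1 from -0.11 to 0.0323. Col25a1, with 0 counts in AC CM replicates 1 and 2, passed without AC CM replicate 3 (adjusted p = 0.0485), and Col2a1 without C CM replicate 1. The causes were not tested.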

Other observations

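Markers of other marrow cells differed between the groups as well. All 7 granulocyte markers fell, where 13.3% of all genes did (summed level 823 to 957 CPM after C CM and 169 to 186 CPM after AC CM). Of 5 megakaryocyte markers 3 fell and Pf4 rose, beside 13.3% of all genes in each direction. Several low collagen genes had most of their counts in a single library: Col4a3 had 69.4% of its counts in AC CM replicate 3, and Col26a1 had its 8 counts there. Low counts of this kind carry no comparison of the groups.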
